A study of Homo sapiens with 12 samples.

Results

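Collagen chain genes were read in RNA sequencing libraries of BT-549 and SUM149, established cell lines from breast tumours that lack the estrogen and progesterone receptors and HER2 (triple-negative). The chain genes were taken as the protein-coding genes whose symbol is COL, a type number, A and a chain number. This rule found 44 of the 58037 genes in the table. There were 4 groups of 3 libraries each. BT-549 CshRNA and SUM149 CshRNA carried a stable control hairpin, which the BT-549 column names call vector. BT-549 MUC1shRNA and SUM149 MUC1shRNA carried a stable hairpin against MUC1-C, a transmembrane mucin subunit. BT-549 was grown in RPMI1640 with fetal bovine serum and insulin. SUM149 was grown in Ham's F-12 with less serum, insulin, hydrocortisone and HEPES, so line and medium cannot be told apart. The hairpin against MUC1-C has the same name in both lines and its sequence was not used here. The labels describe different sets of cells grown as triplicates but not whether the hairpin was introduced separately for each set. The p-values therefore measure the spread between these samples, which may be technical.

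A collagen is a trimer of chains wound into a triple helix. The chains are made in the endoplasmic reticulum, where prolines and lysines are hydroxylated before the trimer forms and leaves the cell. Fibrillar collagens build the load-bearing fibrils of connective tissue, collagen IV builds the sheet-like network of basement membranes, collagen VI builds beaded filaments at the cell surface, and fibril-associated collagens decorate the fibrils. In breast tumours most fibrillar collagen is made by stromal fibroblasts, while carcinoma cells make chains of the basement membrane and, in mesenchymal lines, fibrillar chains too.

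Collagen IV chain genes lie in head-to-head pairs whose starts share a stretch of DNA, so their starts are shown first. By RefSeq starts on GRCh38.p14, COL4A1 on the minus strand and COL4A2 on the plus strand of chromosome 13 start 127 bases apart. COL4A6 and COL4A5 start 380 bases apart on chromosome X, with a further COL4A6 start 1416 bases from that of COL4A5. COL4A4 and COL4A3 start 419 bases apart on chromosome 2. Windows from 250 bases before to 50 after each start were searched for the letters CCAAT, for the GC box GGGCGG and for TATAAA on both strands. Matches are in capitals, and a match describes letters only. COL15A1, the member with the largest difference between the lines' responses among the 18 tested in both, is shown beside the collagen IV windows. Each is written 5' to 3' on the strand of its gene. They are COL4A1 at chr13:110307108-110307407 (minus), COL4A2 at chr13:110307034-110307333 (plus), COL4A5 at chrX:108439588-108439887 (plus), COL4A6 at chrX:108439409-108439708 (minus) and COL15A1 at chr9:98943657-98943956 (plus).
COL4A1: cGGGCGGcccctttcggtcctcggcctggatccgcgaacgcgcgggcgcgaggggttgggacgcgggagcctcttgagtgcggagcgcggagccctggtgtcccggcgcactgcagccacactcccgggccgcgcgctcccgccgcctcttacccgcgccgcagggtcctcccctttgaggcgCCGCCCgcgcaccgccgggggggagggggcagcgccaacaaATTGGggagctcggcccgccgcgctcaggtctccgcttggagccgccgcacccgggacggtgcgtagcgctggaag
COL4A2: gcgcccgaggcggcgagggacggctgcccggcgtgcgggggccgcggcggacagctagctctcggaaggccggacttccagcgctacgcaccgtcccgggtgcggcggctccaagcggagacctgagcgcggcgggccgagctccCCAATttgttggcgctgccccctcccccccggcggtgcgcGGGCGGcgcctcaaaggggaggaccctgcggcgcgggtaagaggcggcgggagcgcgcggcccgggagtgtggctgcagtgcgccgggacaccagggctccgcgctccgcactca
COL4A5: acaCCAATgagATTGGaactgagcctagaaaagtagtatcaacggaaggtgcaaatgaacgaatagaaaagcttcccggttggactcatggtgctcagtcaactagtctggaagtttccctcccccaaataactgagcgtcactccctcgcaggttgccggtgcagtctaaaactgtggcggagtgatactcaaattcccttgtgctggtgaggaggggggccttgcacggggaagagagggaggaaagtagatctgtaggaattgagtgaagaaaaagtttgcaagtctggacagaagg
COL4A6: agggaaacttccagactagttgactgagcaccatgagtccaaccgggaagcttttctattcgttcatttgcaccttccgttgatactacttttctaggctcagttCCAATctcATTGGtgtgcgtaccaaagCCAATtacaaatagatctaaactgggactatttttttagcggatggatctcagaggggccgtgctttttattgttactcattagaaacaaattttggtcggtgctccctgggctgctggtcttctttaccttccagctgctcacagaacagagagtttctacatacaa
COL15A1: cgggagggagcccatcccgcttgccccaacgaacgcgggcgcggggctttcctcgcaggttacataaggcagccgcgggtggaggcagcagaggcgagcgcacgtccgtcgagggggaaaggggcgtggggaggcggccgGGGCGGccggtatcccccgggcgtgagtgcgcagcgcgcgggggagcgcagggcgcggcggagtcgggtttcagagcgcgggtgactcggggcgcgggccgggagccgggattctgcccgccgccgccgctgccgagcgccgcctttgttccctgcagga
The COL4A1 and COL4A2 windows share 226 bases and those of COL4A5 and COL4A6 share 121. The windows of COL4A1 and COL4A2 hold 45 CpG each and a GC content of 76.7% and 77.7%. Those of COL4A5 and COL4A6 hold 8 and 7 CpG and a GC content of 49.3% and 43.7%, with no GC box. All 4 printed collagen IV windows hold CCAAT, and the COL15A1 window holds a GC box and no CCAAT. The CCAAT of COL4A1 and that of COL4A2 are the same bases on opposite strands. So are the 2 of COL4A5 and 2 of the 3 of COL4A6, so the 4 windows are not independent. The window of the further COL4A6 start, not printed, holds 0 CCAAT and 1 GC box. Of all 35116 RefSeq windows of this length, 34.6% hold CCAAT, 45.0% a GC box and 11.5% TATAAA. RefSeq windows were matched by symbol for 32 of the 44 collagen genes, which have 44 windows. Of these windows, 31.8% hold CCAAT, 54.5% a GC box and 18.2% TATAAA.

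Library depth ran from 7931614 to 24140623 counts. The SUM149 MUC1shRNA libraries held 7931614 to 9623924 counts and the SUM149 CshRNA libraries 19392422 to 24140623, so depth moved with the arm in SUM149; its part in the results was not tested. The log2 fold change of MUC1 was -3.53 in BT-549 and -4.59 in SUM149, and its arms did not overlap in either line. ESR1, PGR and ERBB2 averaged at most 4.88, 0.517 and 58.5 CPM (counts scaled to a common TMM-adjusted library total) in any group. By edgeR, ESR1 rose in SUM149 (log2 fold change 1.09, adjusted p = 3.6e-04) and ERBB2 fell (-0.67, adjusted p = 9.9e-06). In BT-549 only ERBB2 was tested, with no call (-0.06). EPCAM averaged 402 CPM in SUM149 CshRNA and 0.287 in BT-549 CshRNA, CDH1 200 and 0.889, and VIM 31.4 and 1517, so EPCAM and CDH1 were near 0 in BT-549, which had KRT8 and KRT18 at 44.5 and 290 CPM. Some of these markers moved with the arm at an edgeR adjusted p below 0.05. Of the 6 epithelial markers EPCAM, CDH1, KRT8, KRT18, KRT5 and KRT14, 4 were tested in BT-549, where KRT8 (2.66), KRT18 (1.17) and KRT5 (0.39) rose and 0 fell; 6 were tested in SUM149, where KRT14 rose (1.11) and KRT5 fell (-0.99). Of the 4 mesenchymal markers VIM, CDH2, ZEB1 and ZEB2, ZEB2 fell in BT-549 (-0.89) and ZEB1 (2.57) and ZEB2 (1.67) rose in SUM149, ZEB1 from 0.116 to 0.722 CPM. The summed epithelial level was 328 to 382 CPM in BT-549 CshRNA and 806 to 1045 in BT-549 MUC1shRNA, and 1819 to 1846 and 1772 to 1849 in SUM149. The summed mesenchymal level was 1740 to 1928 and 1696 to 1966 CPM in BT-549 and 81.1 to 88.0 and 85.6 to 94.5 in SUM149. Markers of other cells that make or meet collagen were also measured. Of the leukocyte markers, CD3E had no counts in any library, PTPRC fell in BT-549 from 1.07 to 0.273 CPM (-1.95, adjusted p = 0.0029) and CD14 in SUM149 from 4.75 to 2.67 (-0.81, adjusted p = 0.0032). Of the fibroblast and pericyte markers, PDGFRA had no counts in SUM149 and averaged 0.807 CPM in BT-549 CshRNA. PDGFRA, PDGFRB, DPT, RGS5 and ACTA2 summed to 6.42 to 8.95 CPM in BT-549 CshRNA and 7.01 to 8.29 in BT-549 MUC1shRNA. In SUM149 the sums were 8.16 to 9.54 and 5.01 to 6.07 CPM. Of the endothelial markers, CDH5 averaged at most 0.0714 CPM in any group. PECAM1, CDH5, VWF and KDR summed to 26.8 to 30.2 CPM in SUM149 CshRNA and 9.44 to 11.2 in SUM149 MUC1shRNA. Their sum was at most 0.782 CPM in BT-549. PECAM1 fell in SUM149 from 28.4 to 9.71 CPM (-1.54) and ACTA2 from 2.71 to 0.905 (-1.57). The part of these cell markers in the collagen results was not tested.

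SUM149 CshRNA 3 stood apart. It held 144 genes with at least 20 counts that had at most 1 count in each of SUM149 CshRNA 1 and 2, where each of the other 11 libraries held from 0 to 7 such genes against the rest of its group. These genes took 0.0575% of its counts. They included HOXB13 with 800 counts and the prostate kallikreins KLK3 with 360 and KLK2 with 227, and also COL5A1 with 74 and COL26A1 with 30. KLK3 had 10, 3 and 27 counts in SUM149 MUC1shRNA 1, 2 and 3 and at most 2 in any BT-549 library. COL1A2, the most abundant collagen of BT-549, had 0 counts in SUM149 CshRNA 3. BT-549 CshRNA 3 and BT-549 MUC1shRNA 2 also differed from the libraries of their groups, with a chi-square divided by its degrees of freedom of 13.7 to 14.5 and of 8.33 to 8.53 across genes.

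Most collagen genes had counts in both lines, and fewer were found in 1 line alone. In BT-549, 40 of 44 had a count in some library, 30 had at least 10 counts over the 6 libraries, and 24 passed the filter on low counts and were tested. In SUM149 the numbers were 41, 35 and 22. COL20A1, COL6A5 and COL9A1 had 0 counts in all 12 libraries and COL11A1 had 0 in BT-549, where 3 counts in a library would have been 0.154 to 0.200 CPM. At least 10 counts were found in both lines for 28 genes. They were found in BT-549 alone for COL1A2 and COL23A1, and in SUM149 alone for COL10A1, COL19A1, COL26A1, COL2A1, COL4A3, COL5A3 and COL9A3. Without SUM149 CshRNA 3, 37 genes had a count in SUM149, 31 had at least 10 there and 27 in both lines. Those that then fell under 10 counts in SUM149 were COL5A1 (82 counts with that library and 8 without), COL26A1 (30 and 0), COL19A1 (16 and 8) and COL2A1 (10 and 5). Without another single library, from 29 to 30 genes had at least 10 counts in BT-549 and from 34 to 35 in SUM149; these left-out values were added after seeing the data. A further 4 genes had from 1 to 5 counts in at least 1 line and no more in either: COL11A1, COL22A1, COL25A1 and COL6A6. Of the 44, 18 were tested in both lines, 6 in BT-549 alone, 4 in SUM149 alone and 16 in neither. The 6 were COL1A2, COL21A1, COL23A1, COL28A1, COL3A1 and COL5A1, and the 4 were COL14A1, COL4A4, COL5A3 and COL9A3. None of the 16 averaged above 0.796 CPM in a group, the value of COL9A2 in SUM149 CshRNA. Passing the filter in 1 arm alone was enough for testing, so the tested genes are not all members. Through the arm where each was high, COL5A3 (SUM149 MUC1shRNA), COL14A1 and COL4A4 (SUM149 CshRNA), COL23A1 (BT-549 MUC1shRNA) and COL7A1 (BT-549 CshRNA) were tested. Their calls are not independent of that filter. Over all 12 libraries, COL1A2, COL3A1, COL5A1, COL21A1 and COL23A1 passed only through BT-549. COL14A1, COL4A3, COL4A4, COL5A3, COL9A2 and COL9A3 passed only through SUM149. Calls of these genes between control arms or for the difference of responses are likewise not independent of the filter.

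Collagen transcripts took a larger share of the library in BT-549 than in SUM149, and a larger share in MUC1shRNA than in CshRNA in both lines. The share was 0.505% to 0.546% of counts in BT-549 CshRNA and 0.569% to 0.586% in BT-549 MUC1shRNA. It was 0.101% to 0.115% in SUM149 CshRNA and 0.146% to 0.159% in SUM149 MUC1shRNA. The arms did not overlap in either line, and the two-sided exact permutation p was 0.1 in each, the smallest that 3 libraries against 3 allow. In these bulk samples, fewer cells that make a transcript and less transcript per cell cannot be told apart.

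The order of levels differed between the lines. Per kb of exon, BT-549 CshRNA was led by COL1A2 with a mean of 132 CPM per kb, then COL1A1 with 106, COL5A2 with 66.7, COL5A1 with 62.0 and COL15A1 with 53.5. SUM149 CshRNA was led by COL6A1 with 19.6 CPM per kb, then COL6A3 with 11.9, COL12A1 with 9.75, COL4A2 with 7.12 and COL8A1 with 6.65. The order depends on the length used. By the longest transcript, COL4A2 ranked 3, COL9A3 4, COL8A1 5 and COL12A1 6 in SUM149 CshRNA. The same 5 genes led BT-549 CshRNA, with COL5A1 above COL5A2. By raw counts, COL1A2, COL1A1 and COL5A1 made up 26.0%, 18.4% and 12.3% of all collagen counts in BT-549 CshRNA. COL6A3, COL4A2, COL12A1 and COL6A1 made up 23.8%, 13.9%, 12.4% and 10.6% in SUM149 CshRNA. The top 5 genes of BT-549 were thus 4 fibrillar chains and a multiplexin, and those of SUM149 held no fibrillar chain.

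**Figure D1:**
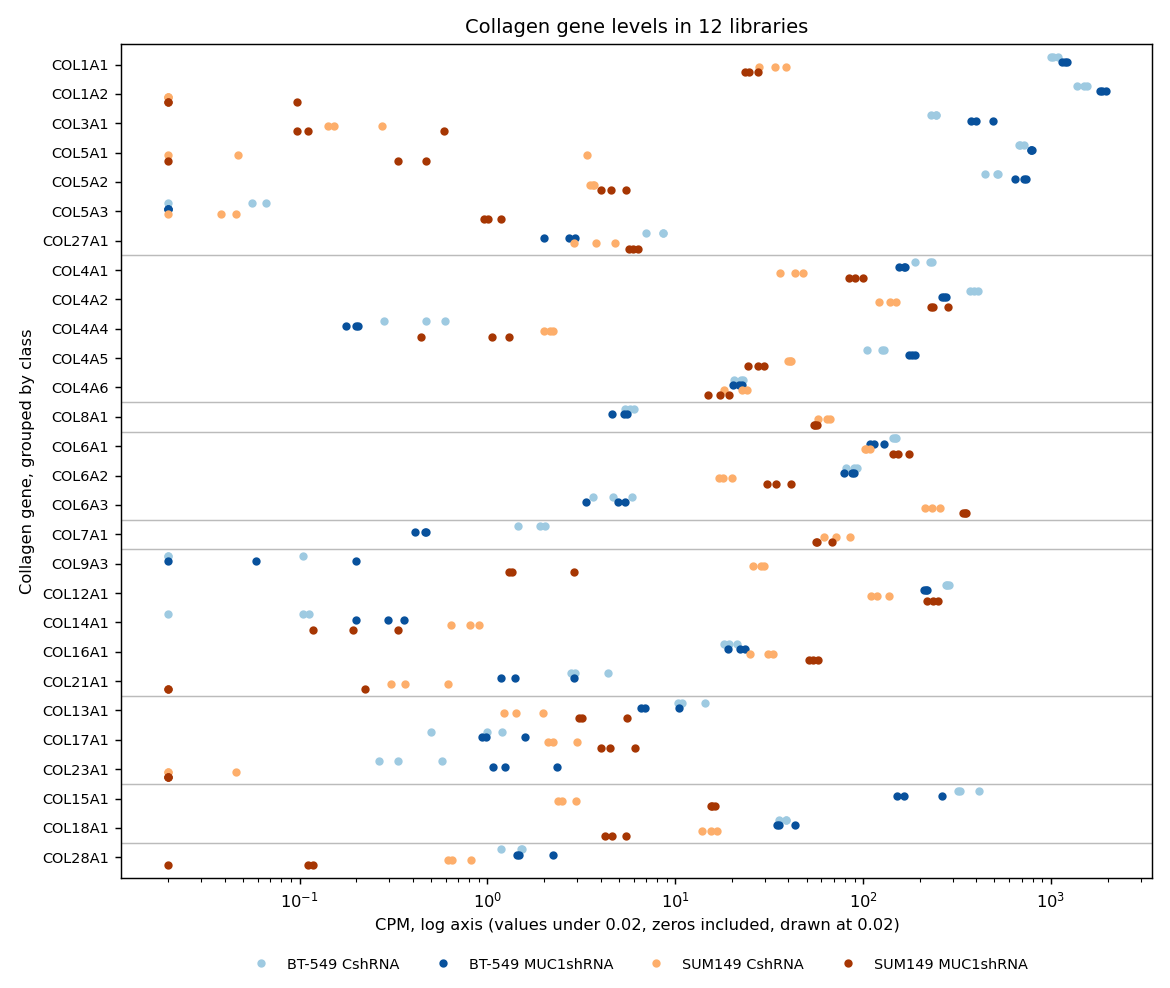
Level of the 28 collagen genes tested in at least 1 line, on the horizontal log axis in CPM, with 1 point per library and colours for the 4 groups; grey lines part the classes, and values under 0.02 CPM are drawn at 0.02. COL1A2 lies between 1377 and 1953 CPM in the BT-549 libraries and at 0 to 0.0963 CPM in SUM149, while COL6A3 lies at 3.36 to 5.90 CPM in BT-549 and 214 to 355 CPM in SUM149.

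Between the control arms, 28 of the 30 collagen genes tested over all 12 libraries differed, 18 higher and 10 lower in BT-549 CshRNA, at an edgeR adjusted p below 0.05; 83% of all 15649 genes did, 39.5% higher and 43.5% lower. At 2-fold or more, 17 were higher and 9 lower, against 20.3% and 27.3% of all genes and 47.6% in both directions. For 28 of the 30 the control arms were apart, against 84% of all genes. Several of the 30 were tested only through the line where they were high, as listed above, so these counts are not independent of the filter. The largest gap was for COL1A2, the second chain of collagen I, at 1560, 1492 and 1377 CPM in BT-549 CshRNA and 0 counts in all 3 SUM149 CshRNA libraries. Against 3 counts per library in SUM149 CshRNA, a mean floor of 0.131 CPM, it was at least 11260-fold higher in BT-549. COL1A1 was 30.9-fold higher in BT-549, COL5A2 137-fold higher and COL15A1 136-fold higher. COL3A1 was 10.26 higher on the log2 scale, a fitted value from 13 counts in SUM149 CshRNA. COL6A3 was 49.9-fold lower in BT-549, COL7A1 40.0-fold lower and COL8A1 10.9-fold lower. COL9A3 had 1944 counts in SUM149 CshRNA and 2 in BT-549 CshRNA, a depth-adjusted ratio of 732 with an exact 95% interval of 202 to 6050 that covers counting error only. COL4A6 was at 22.0 ± 1.2 CPM (SD, n = 3) in BT-549 CshRNA and 21.7 ± 3.1 in SUM149 CshRNA, with overlapping libraries. COL5A1 depends on SUM149 CshRNA 3. Its counts in SUM149 CshRNA 1, 2 and 3 were 0, 1 and 74 against 10244 to 13045 in BT-549 CshRNA, and the ratio was 640 (511 to 814) with that library and 32797 (5886 to 1295400) without it.

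In BT-549, MUC1shRNA went with higher fibrillar collagens I, III and V, IV (chain 5) and XXIII, and with lower IV (chains 1 and 2), VI (chain 1), VII, XII, XIII, XV and XXVII. Of 24 tested collagen genes, 15 differed, 7 higher and 8 lower, which is 62.5% against 33.3% of the 13200 genes tested. Of all genes, 16.8% were called higher and 16.5% lower. At 2-fold or more, 3 collagen genes were called against 4.73% of all genes: COL23A1 higher (2.75% of all genes) and COL27A1 and COL7A1 lower (1.98%). For 14 of the 24 the arms were apart, with no library of one among those of the other, against 47% of all genes. The median log2 fold change of the 24 was -0.04 and that of all genes tested -0.01. Without BT-549 CshRNA 3 and MUC1shRNA 2 together, 16 were called, with COL21A1 added.

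In SUM149, MUC1shRNA went with higher collagens IV (chains 1 and 2), V (chain 3), VI, XII, XIII, XV, XVI, XVII and XXVII, and with lower IV (chains 4, 5 and 6), IX (chain 3), XIV, XVIII and I (chain 1). Of 22 tested, 19 differed, 12 higher and 7 lower, which is 86.4% against 56.5% of the 14178 genes tested. Of all genes, 27.6% were called higher and 28.9% lower. At 2-fold or more, 9 collagen genes were called against 12.9% of all genes, 5 of them higher (4.39%) and 4 lower (8.52%), and the arms were apart for 20 of the 22 against 62.6%. The median log2 fold change was 0.59 over the 22 and -0.03 over all genes tested. Without SUM149 CshRNA 3, 20 of 21 tested genes were called, 12 higher and 8 lower, with COL7A1 (-0.38, adjusted p = 7.0e-04) and COL8A1 (-0.23, adjusted p = 0.014) added and COL14A1 no longer tested. The count of lower genes was 4 without SUM149 CshRNA 1, where COL1A1 and COL4A6 were not called and COL14A1 was not tested.

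**Figure D2:**
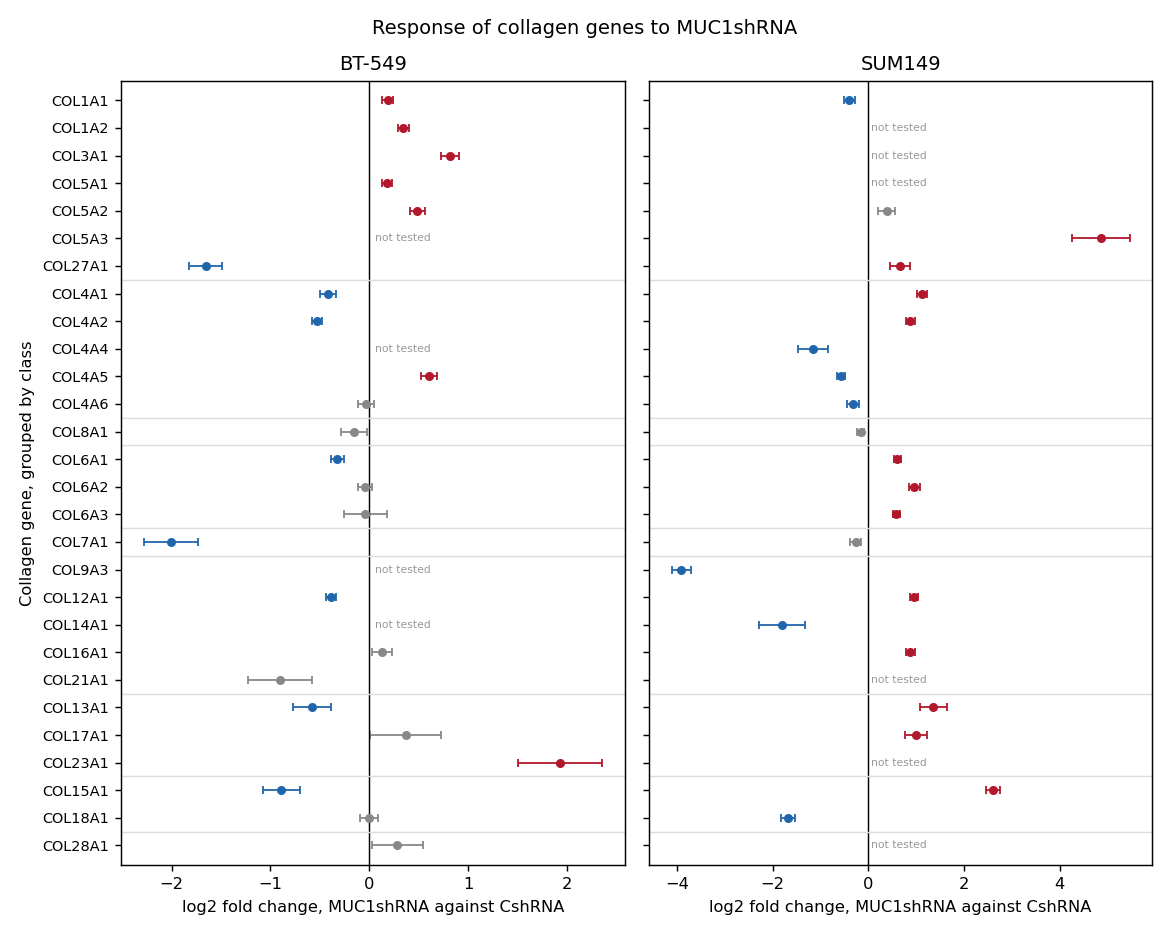
Log2 fold change of MUC1shRNA against CshRNA with its standard error for the collagen genes, BT-549 on the left and SUM149 on the right, in red where called higher, in blue where called lower and in grey where not called. COL15A1 stands at -0.89 in BT-549 and 2.61 in SUM149, and COL9A3 at -3.91 in SUM149.

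Genes called in both lines moved in opposite directions. Of the 18 collagen genes tested in both lines, 9 were called in both and all 9 had opposite signs: COL12A1, COL13A1, COL15A1, COL27A1, COL4A1, COL4A2 and COL6A1 fell in BT-549 and rose in SUM149, and COL1A1 and COL4A5 rose in BT-549 and fell in SUM149. Of all 12125 genes tested in both lines, 9.93% were called with opposite signs and 11.1% with the same sign. By edgeR, 0 collagen genes were called with the same sign, as with DESeq2, limma-voom, RLE scaling and the stricter filter, which did not test COL7A1 in BT-549; at an unadjusted p below 0.05 there was 1, COL7A1. COL7A1 was called lower in both lines by upper-quartile scaling, with no filter, with all 12 libraries in 1 fit and without SUM149 CshRNA 3 or MUC1shRNA 2. The difference between the responses also passed its test for all 9. These had been picked by opposite calls in the same libraries, so that is no separate support. Over both lines, the difference passed for 18 of the 30 genes tested, against 39.6% of all genes. Among the 18, COL14A1, COL5A3 and COL9A3 had passed the filter only through SUM149. It was positive, BT-549 minus SUM149, for 6 (19.5% of all genes) and negative for 12 (20.1%). At 2-fold or more it was positive for 5 and negative for 8, together 13 against 12.6% of all genes (7.7% positive and 4.91% negative). For 7 of the 9, both calls held under every alternative that tested them. COL1A1 and COL13A1 lost a call in some, as given below.

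**Figure D3:**
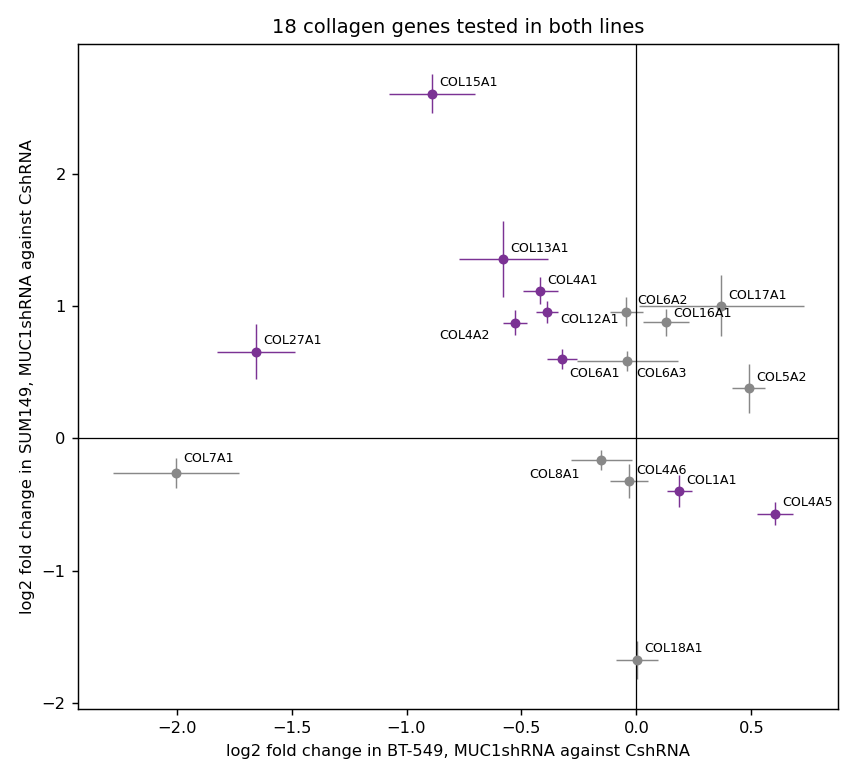
Log2 fold change in SUM149 against that in BT-549 for the 18 collagen genes tested in both lines, with standard errors as bars and the 9 genes called in both lines in purple. The purple points lie in the upper left and lower right, with COL15A1 farthest from 0 in SUM149 at 2.61 and COL4A5 at 0.60 in BT-549 and -0.57 in SUM149.

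The tested fibrillar chains rose in BT-549 with 1 exception. All 6 tested members, of 11 fibrillar genes, were called, 5 higher and COL27A1 lower. Of all genes tested in BT-549, 33.3% were called, 16.8% were called higher and 47% had arms that did not overlap. COL3A1, the single chain of collagen III, was at 245, 244 and 229 CPM in BT-549 CshRNA and 400, 490 and 377 in BT-549 MUC1shRNA, a log2 fold change of 0.82 (SE 0.09, adjusted p = 1.7e-04). COL5A2, a chain of the collagen V that nucleates fibrils, was at 525, 519 and 448 CPM against 733, 647 and 718 in MUC1shRNA, a log2 fold change of 0.49 (adjusted p = 9.0e-04). COL1A2 rose from 1560, 1492 and 1377 CPM to 1953, 1815 and 1877 (log2 fold change 0.35, adjusted p = 0.0017). For these 3 genes every MUC1shRNA library lay above every CshRNA library. COL1A1, the main chain of collagen I, was at 1096, 999 and 1020 CPM against 1224, 1148 and 1182 (0.19, adjusted p = 0.023), and COL5A1 at 720, 679 and 680 against 787, 783 and 790 (0.18, adjusted p = 0.017).

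These last 2 calls were narrow. Without BT-549 MUC1shRNA 1, MUC1shRNA 3 or CshRNA 2, the adjusted p of COL1A1 was 0.11, 0.073 and 0.073 and that of COL5A1 0.073, 0.066 and 0.051. With all 12 libraries in 1 fit they were 0.10 and 0.65. COL27A1, a fibrillar chain of cartilage and other tissues, fell in BT-549 from 8.56, 8.62 and 6.99 CPM to 2.72, 2.00 and 2.94, a log2 fold change of -1.66 (SE 0.17, adjusted p = 1.1e-04). In SUM149 it was at 4.79, 3.78 and 2.87 CPM against 5.66, 6.34 and 5.97, a log2 fold change of 0.66 (adjusted p = 0.015). The responses of COL27A1 differed by -2.30 (SE 0.28, adjusted p = 1.4e-05).

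SUM149 held few fibrillar transcripts. COL1A1 was at 38.6, 33.9 and 28.0 CPM in SUM149 CshRNA and 23.6, 27.6 and 24.6 in SUM149 MUC1shRNA, lower by -0.40 on the log2 scale (adjusted p = 0.012). The lowest CshRNA value lay just above the highest MUC1shRNA value, and the adjusted p was 0.056, 0.051 and 0.054 without SUM149 CshRNA 1, MUC1shRNA 1 or MUC1shRNA 3. The COL1A1 response differed between the lines by 0.60 (SE 0.13, adjusted p = 0.0022). COL1A2 had 1 count in the 6 SUM149 libraries, so collagen I of SUM149 was read as COL1A1 alone. COL5A2 was at 3.52, 3.68 and 3.65 CPM against 4.01, 5.45 and 4.53, which did not pass the test (0.38, adjusted p = 0.097). COL5A3, another chain of collagen V, had 1, 0 and 1 counts in SUM149 CshRNA and 10, 9 and 10 in SUM149 MUC1shRNA at less than the depth. It was tested only because the MUC1shRNA arm, where it was high, passed the filter on low counts, so its call is not independent of that filter. It was called higher (adjusted p = 1.7e-05), and the depth-adjusted ratio of its 29 to 2 counts was 36.0 (exact 95% interval 9.11 to 312, counting error only).

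Of collagen IV, COL4A1 and COL4A2 moved together and COL4A5 moved the other way in both lines. COL4A1 and COL4A2, the chains of the common basement membrane trimer, lie head to head and share most of their printed windows. In BT-549, COL4A1 fell from 228, 231 and 189 CPM to 165, 155 and 166 (-0.42, SE 0.08, adjusted p = 0.0029), and COL4A2 fell from 408, 388 and 373 to 264, 271 and 276 (-0.53, SE 0.05, adjusted p = 7.9e-05). In SUM149, COL4A1 rose from 43.6, 47.6 and 36.0 CPM to 84.0, 99.8 and 90.0 (1.12, SE 0.10, adjusted p = 8.7e-07), and COL4A2 rose from 150, 140 and 122 to 229, 284 and 237 (0.88, SE 0.09, adjusted p = 4.7e-06). The arms of both genes did not overlap in either line, and the responses differed by -1.52 and -1.39 between the lines (adjusted p = 1.0e-06 and 3.9e-07).

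COL4A5 and COL4A6, chains of basement membranes in kidney, skin and smooth muscle, lie head to head on chromosome X and did not respond alike in BT-549. COL4A5 rose there from 126, 129 and 105 CPM to 189, 183 and 176 (0.60, SE 0.08, adjusted p = 4.3e-04). COL4A6 was at 22.9, 20.5 and 22.4 CPM against 20.3, 21.8 and 22.7 (-0.03, adjusted p = 0.80), with overlapping arms. In SUM149, COL4A5 fell from 40.9, 39.9 and 41.2 CPM to 27.6, 29.7 and 24.4 (-0.57, SE 0.09, adjusted p = 1.1e-04). COL4A6 was at 24.2, 22.7 and 18.1 CPM against 15.0, 19.3 and 17.3 there, called lower by -0.32 (adjusted p = 0.047) with overlapping arms. That call of COL4A6 was lost without SUM149 CshRNA 1 or 2 or MUC1shRNA 1 or 3 (adjusted p = 0.17, 0.11, 0.18 and 0.12) and by RLE scaling (0.055), DESeq2 (0.066) and limma-voom (0.064). COL4A4, partner of COL4A3 and COL4A5 in the trimer of the kidney filter, fell in SUM149 from 2.14, 2.22 and 2.01 CPM to 1.3, 0.445 and 1.06 (-1.17, SE 0.31, adjusted p = 0.0064). COL4A4 was tested there through the CshRNA arm, where it was high, and had 4 counts in SUM149 MUC1shRNA 2, so its call is not independent of the filter. COL4A3 had 45 counts over the SUM149 libraries and was not tested there.

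Chain ratios per kb of exon were taken within a library. In BT-549 the arms overlapped for COL4A2 to COL4A1 and not for COL4A5 to COL4A6, and in SUM149 the reverse held. COL4A2 to COL4A1 was 1.38 ± 0.11 (SD, n = 3) in BT-549 CshRNA and 1.28 ± 0.054 in MUC1shRNA, with overlapping libraries, and 2.49 ± 0.21 and 2.09 ± 0.080 in SUM149, without overlap. COL4A5 to COL4A6 went from 4.29 ± 0.64 to 6.63 ± 0.62 in BT-549 without overlap. In SUM149 it was 1.49 ± 0.25 and 1.25 ± 0.17 with overlap. These ratios depend on the exon length used and were compared only within a pair of genes.

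**Figure D4:**
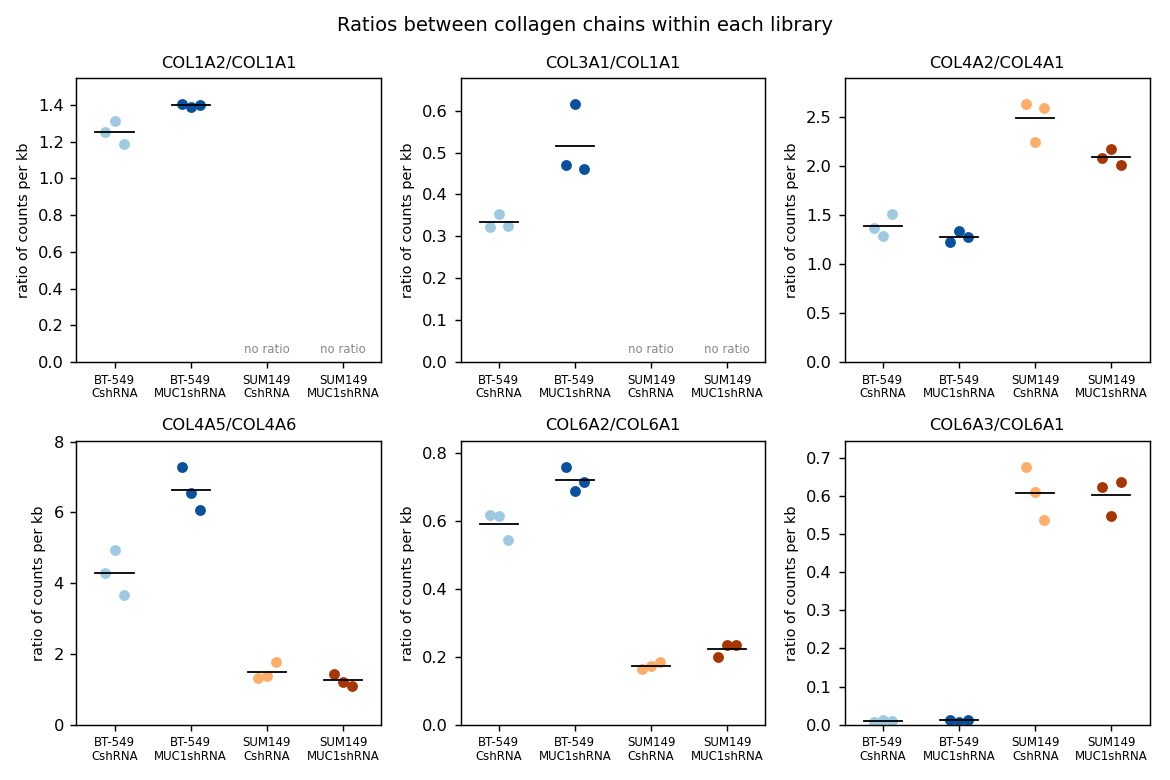
Ratio of counts per kb of exon between chains of a collagen, or between COL3A1 and COL1A1, in each library (points) with the group mean (line), on axes from 0; no ratio is drawn where a chain had under 10 counts in a library. COL4A5 to COL4A6 is 3.66 to 4.93 in BT-549 CshRNA and 6.06 to 7.28 in BT-549 MUC1shRNA, and COL6A3 to COL6A1 is at most 0.0128 in BT-549 and at least 0.538 in SUM149.

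The other ratios in that plot follow the fibrillar and collagen VI chains. COL1A2 to COL1A1 was 1.25 ± 0.063 in BT-549 CshRNA and 1.40 ± 0.0069 in BT-549 MUC1shRNA, and COL3A1 to COL1A1 was 0.333 ± 0.017 and 0.515 ± 0.087. COL6A2 to COL6A1 was 0.592 ± 0.042 and 0.720 ± 0.036 in BT-549 and 0.174 ± 0.0100 and 0.222 ± 0.020 in SUM149. None of these 4 pairs of arms overlapped.

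Collagen VI, the beaded filament, is built from the chains of COL6A1, COL6A2 and COL6A3, and BT-549 had little COL6A3. COL6A3 was at 3.64, 5.90 and 4.64 CPM in BT-549 CshRNA and 5.40, 3.36 and 4.94 in BT-549 MUC1shRNA (-0.04, adjusted p = 0.91). In SUM149 it rose from 256, 232 and 214 CPM to 350, 355 and 338 (0.59, SE 0.07, adjusted p = 1.7e-05). COL6A1 fell in BT-549 from 149, 144 and 147 CPM to 114, 129 and 109 (-0.32, SE 0.07, adjusted p = 0.0049) and rose in SUM149 from 103, 103 and 108 to 153, 176 and 144 (0.60, SE 0.08, adjusted p = 2.1e-05). COL6A2 was at 92.9, 89.1 and 80.8 CPM against 87.5, 89.0 and 78.7 in BT-549 (-0.04, adjusted p = 0.67) and rose in SUM149 from 17, 18 and 20.1 to 30.6, 41.4 and 34.2 (0.96, SE 0.11, adjusted p = 9.2e-06). All 3 tested chains thus rose in SUM149 with arms that did not overlap. Of all genes tested in SUM149, 27.6% were called higher and 62.6% had arms that did not overlap in either direction. The responses differed between the lines by -0.91 for COL6A1, -0.99 for COL6A2 and -0.60 for COL6A3. The COL6A3 difference (adjusted p = 0.034) ended without any of 7 of the 12 libraries: BT-549 MUC1shRNA 2 (0.098), CshRNA 2 (0.12) and CshRNA 3 (0.061), SUM149 CshRNA 2 (0.055), and SUM149 MUC1shRNA 1, 2 and 3 (0.057, 0.060 and 0.053). By limma-voom its adjusted p was 0.058.

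COL7A1 and COL8A1 stood high in SUM149. COL7A1, the anchoring fibril that ties the basement membrane to the matrix beneath, fell in BT-549 from 1.90, 1.46 and 2.03 CPM to 0.411, 0.471 and 0.468 (-2.00, SE 0.27, adjusted p = 5.9e-04). In SUM149 it was at 85.2, 72.1 and 61.7 CPM against 56.7, 68.3 and 56.1, which did not pass the test with all libraries (-0.26, adjusted p = 0.064). It passed without SUM149 CshRNA 3 (7.0e-04), without SUM149 MUC1shRNA 2 (0.049), by upper-quartile scaling (0.025), under the stricter filter (0.030), with no filter (6.7e-04) and with all 12 libraries in 1 fit (0.045). The COL7A1 responses differed by -1.73 (SE 0.36, adjusted p = 0.0013). COL8A1, a short-chain collagen of basement membranes and vessel walls, was at 63.8, 66.3 and 57.4 CPM in SUM149 against 54.5, 56.7 and 55.4 (-0.16, adjusted p = 0.088, but 0.022 by upper-quartile scaling, 0.049 with no filter or the stricter one and 0.014 without SUM149 CshRNA 3) and at 5.76, 5.37 and 6.0 against 5.35, 4.60 and 5.55 in BT-549 (-0.15, adjusted p = 0.41). The transmembrane COL17A1 of hemidesmosomes rose in SUM149 from 2.99, 2.22 and 2.10 CPM to 4.48, 6.12 and 4.04 (1.01, SE 0.23, adjusted p = 0.0022) and was at 0.504 to 1.59 CPM in BT-549, with no call (0.37, adjusted p = 0.46).

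The other tested transmembrane collagens were COL13A1 and COL23A1. COL13A1, found at cell adhesions and the neuromuscular junction, was at 10.3, 10.8 and 14.4 CPM in BT-549 CshRNA and 6.94, 10.4 and 6.55 in BT-549 MUC1shRNA, called lower (-0.58, adjusted p = 0.044) with overlapping arms. The call was lost without any of 5 of the 6 BT-549 libraries, with an adjusted p of 0.16 and 0.15 without MUC1shRNA 1 and 3 and 0.059, 0.054 and 0.13 without CshRNA 1, 2 and 3, and of 0.065 with all 12 libraries in 1 fit. In SUM149 it rose from 1.42, 1.98 and 1.23 CPM to 3.06, 5.57 and 3.18 (1.36, SE 0.29, adjusted p = 0.0012). COL23A1 rose in BT-549 from 0.336, 0.265 and 0.574 CPM to 1.23, 2.36 and 1.07 (1.93, SE 0.43, adjusted p = 0.0072).

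The fibril-associated collagens held the largest fall. COL9A3, a chain of the cartilage collagen IX, went in SUM149 from 29.5, 28.6 and 25.9 CPM to 1.3, 2.89 and 1.35, a log2 fold change of -3.91 (SE 0.20, adjusted p = 4.3e-09). Its partner COL9A1 had 0 counts. COL9A2 had 54 counts in SUM149 CshRNA, at 0.498 to 1.28 CPM by library, and 6 in SUM149 MUC1shRNA, and did not pass the filter on low counts. COL12A1, which links fibrils to their surroundings, fell in BT-549 from 277, 286 and 280 CPM to 216, 220 and 210 (-0.39, SE 0.05, adjusted p = 3.5e-04). It rose in SUM149 from 137, 118 and 110 to 249, 218 and 237 (0.96, SE 0.08, adjusted p = 7.1e-07). COL16A1 rose in SUM149 from 33.0, 31.2 and 25.0 CPM to 51.5, 57.5 and 53.8 (0.88, SE 0.10, adjusted p = 9.5e-06) and was at 18.2 to 23.4 CPM in BT-549, with no call (0.13, adjusted p = 0.35). COL14A1 had 21, 19 and 14 counts in SUM149 CshRNA and 1, 3 and 2 in SUM149 MUC1shRNA (adjusted p = 0.0056 by edgeR and 0.051 by DESeq2). COL21A1 was at 2.80, 2.92 and 4.38 CPM in BT-549 CshRNA and 1.18, 2.89 and 1.40 in MUC1shRNA. It did not pass edgeR's test (-0.90, adjusted p = 0.058) but did without BT-549 MUC1shRNA 2 (-1.40, adjusted p = 0.0049), by DESeq2 (0.038), by limma-voom (0.042) and with no filter (4.4e-04).

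The multiplexins COL15A1 and COL18A1 are basement membrane collagens whose ends release anti-angiogenic fragments, and they parted ways. COL15A1 fell in BT-549 from 322, 329 and 416 CPM to 164, 262 and 151 (-0.89, SE 0.19, adjusted p = 0.0058). It rose in SUM149 from 2.49, 2.98 and 2.37 CPM to 15.7, 15.5 and 16.4 (2.61, SE 0.15, adjusted p = 1.1e-08). The arms did not overlap in either line, and the responses differed by -3.49 (SE 0.32, adjusted p = 7.6e-07). The highest BT-549 CshRNA and MUC1shRNA values were those of CshRNA 3 and MUC1shRNA 2, which stood apart. COL18A1 fell in SUM149 from 16.7, 15.4 and 13.8 CPM to 4.60, 5.45 and 4.24 (-1.68, SE 0.14, adjusted p = 5.2e-07) and was at 35.0 to 43.3 CPM in BT-549 with overlapping arms (0.00, SE 0.09, adjusted p = 0.99). COL18A1 shares 16.4% of its exon bases with SLC19A1 on the opposite strand, and since the strand setting of the counts is not given, reads of these 2 genes there cannot be told apart.

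COL28A1 was at 1.17 to 2.24 CPM in BT-549, with no call (0.29, adjusted p = 0.42). In SUM149 it had 17, 13 and 18 counts in CshRNA and 1, 1 and 0 in MUC1shRNA and was not tested within that line. The depth-adjusted ratio of CshRNA to MUC1shRNA was 9.66 (exact 95% interval 2.53 to 82.0, counting error only).

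The genes that make, move, process, cross-link, bind and cut collagen were mixed. Of the 20 folding and hydroxylation enzymes, 20 were tested in BT-549, where 1 rose and 9 fell, and 19 in SUM149, where 7 rose and 7 fell. Of all genes tested, 16.8% rose and 16.5% fell in BT-549 and 27.6% and 28.9% in SUM149. Their median log2 fold change was -0.19 in BT-549 and -0.01 in SUM149, beside -0.01 and -0.03 over all genes. CRTAP, a subunit of the complex that 3-hydroxylates collagen prolines, fell in both lines, from 298 to 123 CPM in BT-549 (-1.28) and from 166 to 77.3 in SUM149 (-1.09). CREB3L1, a transcription factor of the secretory pathway that activates collagen I genes, fell from 144 to 77.1 CPM in BT-549 (-0.91). P3H2, a prolyl 3-hydroxylase of collagen IV, fell from 108 to 34.3 CPM in SUM149 (-1.64) and from 312 to 236 in BT-549 (-0.41).

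Of the 11 export genes, 11 were tested in each line, with 1 higher and 1 lower in BT-549 (median -0.01) and 4 higher and 4 lower in SUM149 (median -0.05), against 33.3% of all genes called in either direction in BT-549 and 56.5% in SUM149. SAR1B, a small GTPase of the vesicle coat that leaves the endoplasmic reticulum, rose in BT-549 (0.45), where SAR1A fell (-0.16). In SUM149, the coat subunit SEC23A rose (0.46) and MIA2, a cargo factor at the exit sites, fell from 6.54 to 2.61 CPM (-1.32). Of the 11 processing genes, 2 rose and 2 fell of 7 tested in BT-549 (median -0.11), and 0 rose and 3 fell of 6 tested in SUM149 by edgeR (median -0.46), against the same 33.3% and 56.5%. BMP1, the protease that trims the procollagen C-terminus, fell from 51.0 to 32.0 CPM in BT-549 (-0.68), as did its enhancer PCOLCE2 (-0.42). ADAMTS3, a protease of the N-terminus, fell from 8.36 to 1.14 CPM in SUM149 (-2.88) and TLL1, a relative of BMP1, by -0.71.

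Of the 5 lysyl oxidases, which cross-link collagen, LOXL2 rose in both lines, from 1263 to 1552 CPM in BT-549 (0.29) and from 36.3 to 80.4 in SUM149 (1.16), and LOXL1 fell in both (-0.90 and -0.38). The list had 1 higher and 1 lower of 3 tested in BT-549 (median 0.29) and 1 higher and 3 lower of 5 in SUM149 (median -0.36), against 33.3% and 56.5% of all genes called in either direction. Of 11 collagen receptors, 5 rose and 1 fell of 7 tested in BT-549 (median 0.50), and 3 rose and 4 fell of 8 in SUM149 (median -0.36). Of all genes, 16.8% rose and 16.5% fell in BT-549 and 27.6% and 28.9% in SUM149. The shared integrin chain ITGB1 rose in both (0.50 and 0.89), its partner ITGA10 rose in BT-549 (0.79), its partner ITGA2 rose from 78.2 to 212 CPM in SUM149 (1.45), and the adhesion receptor ADGRG1 fell there (-1.09).

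Of 15 fibril-binding proteins, 2 rose and 2 fell of 6 tested in BT-549 (median 0.02), and 3 rose and 3 fell of 7 in SUM149 (median -0.69), against 33.3% and 56.5% of all genes called in either direction. FN1, the fibronectin on which collagen fibrils assemble, rose in SUM149 from 766 to 3100 CPM (2.03) and TNC, tenascin-C, from 22.4 to 111 (2.32). In BT-549, SPARC, which binds collagen outside the cell, rose from 1332 to 2088 CPM (0.65), and FBLN1 fell from 3.13 to 0.239 (-3.70). Of 7 enzymes that cut collagen, 1 rose and 1 fell in each line, of 4 tested in BT-549 (median -0.01) and 3 in SUM149 (median -0.33), against the same shares of all genes. The gelatinase MMP2 rose in both (0.61 and 0.59), the interstitial collagenase MMP1 fell in BT-549 from 4.78 to 0.965 CPM (-2.28), and the membrane protease MMP14 fell in SUM149 (-0.33).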

How the data were processed

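Values are unnormalized counts of reads per Ensembl gene and library, as deposited by the authors. Per the labels' protocols, Trizol RNA was made into TruSeq Stranded mRNA libraries. STAR 2.7.0, CASAVA 1.8.2 and DESeq2 1.24.0 with the build GRCh38.p7 are named in the submitters' processing notes, with no roles. Which program counted, whether by strand, and with which annotation is not given in the sources used. Symbols, exon lengths and overlaps came from GENCODE 29 on GRCh38, which matched 57388 of 58037 identifiers without version; 45 copies of pseudoautosomal genes on Y were left out. Sequences came from RefSeq GRCh38.p14. No protein is printed.

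edgeR 4.0.16 in R 4.3.3 fitted each line alone with TMM scaling, filterByExpr's default filter and the quasi-likelihood test, with Benjamini-Hochberg adjustment over all genes tested and a threshold of 0.05. All fold changes and adjusted p-values are edgeR's unless another tool is named. SE, in the text and figures, is the size of the log2 fold change divided by the square root of edgeR's F statistic. It was derived from the test and not estimated separately, and can understate counting error where an arm has few counts. The difference of responses (BT-549 minus SUM149) and the contrast of control arms used all 12 libraries. Levels are CPM on TMM-adjusted totals over the 12 libraries, divided by union exon length where genes are compared. Alternatives were RLE and upper-quartile scaling, no filter, at least 5 CPM in 3 libraries, DESeq2 1.42.0, limma-voom (limma 3.58.1), a replicate block, 1 fit for all libraries, and each library left out. For levels per kb, the longest transcript was the alternative to union exon length. The edgeR steps were tested on simulated data.

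The members, the gene lists and the tests were chosen with earlier results of these data known. Values in every library are printed by rule for called members with a log2 fold change of at least 1 in size and at least 5 CPM in the higher arm (COL27A1 in BT-549; COL15A1, COL18A1, COL4A1 and COL9A3 in SUM149) and for the tested chains of the same collagen. Those of other members, and the genes named for SUM149 CshRNA 3, were chosen after their values were seen. Of each list of other genes, the 2 called members ranked first by adjusted p are named for each line; ITGB1 in SUM149 and P3H2 in BT-549 are added to complete a pair. Intervals on ratios of counts are exact 95% intervals.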

Additional observations from a re-analysis of the deposited data

Results flagged for a closer look

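For 18 collagen genes the response to MUC1shRNA differed between the lines by edgeR's test of the interaction over all 12 libraries, at an adjusted p below 0.05. The difference, BT-549 minus SUM149 on the log2 scale, was negative for 12. It was -1.33 for COL12A1, -1.92 for COL13A1, -3.49 for COL15A1, -0.74 for COL16A1, -2.30 for COL27A1 and -1.73 for COL7A1. Of the basement membrane and beaded filament chains it was -1.52 for COL4A1, -1.39 for COL4A2, -0.91 for COL6A1, -0.99 for COL6A2 and -0.60 for COL6A3. For COL5A3 it was -7.47, a fitted value that depends on the prior count, since BT-549 held 2 counts of it in 6 libraries.

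The difference was positive for 6. It was 0.60 for COL1A1, 1.19 for COL4A5 and 1.70 for COL18A1. For COL14A1 it was 3.65, from 4 and 15 counts in the BT-549 arms and 54 and 6 in the SUM149 arms. It was 3.43 for COL28A1, which had 2 counts in SUM149 MUC1shRNA, and 4.83 for COL9A3, which had 2 and 4 counts in the BT-549 arms. Without BT-549 MUC1shRNA 3 the COL9A3 difference was 3.53 and its adjusted p by edgeR 0.28.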

How the results depend on the processing

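The count of called collagen genes stayed within 1.5 times its value under every alternative for BT-549 (12 to 16, against 15), SUM149 (16 to 27, against 19), the difference of responses (15 to 20, against 18) and the control arms (20 to 30, against 28). The count of lower genes in SUM149, 7, was 15 with no filter and 12 with all 12 libraries in 1 fit, both of which test more genes, and ranged from 4 to 9 without 1 library each. That of lower genes between control arms, 10, was 5 under the stricter filter, which tests fewer genes. If detection asks for a mean of 1 CPM or more in an arm, 22 collagen genes in place of 35 were detected in SUM149. Over all genes, BT-549 calls were 4398 and 2716 without MUC1shRNA 1. Upper-quartile scaling moved the median of all genes between control arms from -0.07 to -0.19.

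Signs turned for values that were not called with all libraries. COL18A1 in BT-549 was -0.011 by upper-quartile scaling, -0.0035 by limma-voom, -0.0050 with the replicate block, -0.14 without BT-549 CshRNA 3 and MUC1shRNA 2 together, and -0.099 to 0.060 without 1 library each. COL6A3 in BT-549 was 0.15 without those 2 and -0.20 to 0.15 without 1 each. Without 1 library each, COL4A6 in BT-549 ranged from -0.075 to 0.016, COL6A2 in BT-549 from -0.094 to 0.010, the COL8A1 difference from -0.036 to 0.092 and COL5A3 between control arms from -0.097 to 0.91. COL4A6 between control arms was -0.10 by upper-quartile scaling, -0.084 under the stricter filter and -0.094 to 0.11 without 1 library each. The COL5A1 difference was 2.27, -0.22 by limma-voom and -2.98 to 2.95 without 1 library each; the -2.98 came without SUM149 CshRNA 3 (adjusted p = 0.028 by edgeR). The COL4A6 difference, 0.31, was 0.42 without that library (adjusted p = 0.025). The causes were not tested.

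Same-numbered libraries did not deviate together. The correlations across genes of their deviations were 0.10, -0.25 and -0.20 in BT-549 and -0.07, 0.08 and 0.10 in SUM149, and not every library correlated best with its own number. The highest correlation, 0.33, was between BT-549 CshRNA 3 and BT-549 MUC1shRNA 2, the BT-549 libraries that stood apart. With the replicate block, 13 collagen genes were called in BT-549, 20 in SUM149, 17 for the difference and 26 between control arms. By edgeR with the block, COL5A1 and COL13A1 in BT-549 (adjusted p = 0.061 and 0.083), the COL6A3 difference (0.061) and COL23A1 and COL28A1 between control arms (0.089 and 0.26) were not called. COL7A1 was then called lower in SUM149 (-0.25, adjusted p = 0.036), and so in both lines. Over all genes in BT-549, calls went from 4398 to 2951. The p-values rest on 3 libraries a group, and counts under 10 a library leave COL5A3, COL14A1, COL23A1 and COL28A1 imprecise.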
